A study of Mus musculus with 17 samples.

Results

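The genes described here encode the proteins of the cytosolic ribosome. They were chosen by symbol alone, as every gene whose symbol begins with Rpl or Rps and a digit, together with Rplp0, Rplp1, Rplp2 and Rpsa, that had at least 1 protein-coding transcript. Ribosomal S6 kinases and symbols marked as pseudogenes were left out. This gave 87 of the 55357 genes quantified, 52 with a large-subunit symbol and 35 with a small-subunit symbol. The rule itself uses symbols and annotation and no expression value. A few of the 87 are not ribosomal proteins in the strict sense: Rps19bp1 encodes a protein that binds RPS19, Rps23rg1 is a retrogene derived from Rps23, and Rps27rt is a retrocopy of Rps27.

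The samples were β cells sorted from islets of male mice. Control mice carried RIP-Cre, a Cre transgene driven by a rat insulin promoter, and a Rosa26 tdTomato reporter that labels cells in which Cre has acted. Knockout mice (Pcbp2 βKO) carried both of these alleles and 2 floxed copies of Pcbp2, which encodes a poly(C)-binding protein that acts on many mRNAs. Islets were held for 3 days in glucose at a low (2.8 mM) or a high (16.7 mM) concentration, after which single tdTomato-positive cells that excluded DAPI were sorted into TRIzol, and poly(A) RNA was sequenced. There were 3 control and 5 knockout samples at 2.8 mM, and 4 control and 5 knockout samples at 16.7 mM, 17 in all. The age of these mice, and whether a sample pooled animals, are not given in the sources used here, so p-values measure the spread between these samples, which may in part be technical. Estimated counts summed to between 47385513 and 82419400 per sample. As the check of the label, Pcbp2 lay between 35.0 and 73.4 CPM (library sizes adjusted by TMM factors) in the 7 control samples and between 5.81 and 19.2 CPM in the 10 knockout samples.

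A ribosome consists of a large (60S) and a small (40S) subunit, each built on ribosomal RNA, and most of its proteins are encoded by a single active gene that is expressed in every cell. Cells make the subunits in balanced amounts, and the mRNAs of ribosomal proteins belong to a class that begins with a cytosine followed by a run of pyrimidines, the terminal oligopyrimidine (TOP) motif. This motif lets LARP1 and the mTOR pathway store or release these mRNAs together according to nutrient supply. In β cells, which devote much of their protein synthesis to insulin, glucose is among the main signals that set the rate of translation.

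The sequences around the annotated transcription start are shown for 3 genes picked for long pyrimidine runs and for 4 genes with their paralogs, since the results below turn on these pairs. Each is 30 bases of the mouse genome (GRCm39) on the transcribed strand, 5′ to 3′, from 10 bases before the start of the gene's canonical transcript in GENCODE vM39. Capitals mark the longest run of at least 8 pyrimidines, which 5 of the 11 starts lack.
Rps2, chr17:24939072-24939101, plus strand: cggcgCCTCCCTCTTCTTCTTCTTCgggag
Rpl15, chr14:4198703-4198732, plus strand: aagCCTTCTTCCTTTCCTCTggcggcagcc
Rpl34, chr3:130523967-130523996, minus strand: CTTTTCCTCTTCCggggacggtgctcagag
Rpl22, chr4:152410140-152410169, plus strand: ctgaCTCCTCCCTTTCCCgacagccgactt
Rpl22l1, chr3:28859575-28859604, plus strand: ccggttccgagttgcgtatttcgcacgctc
Rps27, chr3:90120958-90120987, minus strand: cagatataaggaacaggatttccgctttcg
Rps27l, chr9:66853330-66853359, plus strand: gtcgcccccgcctccaCTCCTCTCCactcc
Rpl36a, chrX:133486393-133486422, plus strand: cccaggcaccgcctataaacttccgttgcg
Rpl36al, chr12:69231215-69231244, minus strand: cccgggctccgcgcaTCCTCTCTggcagtt
Rpl7, chr1:16174867-16174896, minus strand: agaaattaagcccagagctgacgaggtgtc
Rpl7l1, chr17:47093587-47093616, minus strand: ggcctctctaccccgcccggtgaggctgcg

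The annotated start can lie some bases away from the base where the mRNA is capped, so the count of motifs at this exact position is only a description. A C at the start followed by 4 pyrimidines was found in 8 of 87 genes (9.2%) and in 3.6% of 21683 other protein-coding genes. A run of at least 8 pyrimidines within 15 bases on either side of the start was found in 19.5% of the 87 genes and in 12.2% of the other genes. In windows from 250 bases before to 50 bases after the start, on either strand, CGGAAG, the core bound by ETS factors, was found in 49 of the 87 genes (56.3%) and in 19.2% of the others. CACGTG, an E-box bound by MYC among other factors, was found in 12.6% against 7.79%, and TATAAA in 12.6% against 13.2%. A match in these windows is a description of the letters and not a site.

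In level per transcript length, Rpl41, which encodes the smallest of these proteins, was highest, with a mean over all samples of 1382 TPM, a unit that divides counts by transcript length. Rps27 had 1302 TPM, Rps14 997 TPM and Rpl37a 803 TPM. The order at the top is not firm: in control cells at 2.8 mM, Rpl41 was at 1927 ± 408 TPM and Rps27 at 1942 ± 358 TPM (SD, n = 3). At the other end, Rpl3l, the muscle paralog of Rpl3, had a mean of 0.079 TPM, Rps23rg1 0.41 TPM, Rpl5 12.8 TPM, Rps19bp1 18.4 TPM and Rpl12 19.3 TPM. Rpl10l and Rpl39l, paralogs known from the male germ line, had 14 and 12.1 estimated counts summed over all 17 samples and were not tested. The other 85 genes passed the filter on low counts, among 22784 genes tested. Most counts that could belong to Rpl5 and Rpl12 by sequence were assigned to pseudogene copies, as described further on.

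The largest difference in these genes was between the glucose concentrations. The 87 genes together took 2.59%, 2.87% and 1.92% of the estimated counts in the 3 control samples at 2.8 mM. In the 4 control samples at 16.7 mM they took 0.974%, 0.867%, 0.82% and 1.07%. In the knockout samples at 2.8 mM the share was 2.97%, 2.98%, 2.98%, 2.56% and 2.51%, and at 16.7 mM it was 0.816%, 0.829%, 0.883%, 1.18% and 0.774%. In both genotypes, every sample at 2.8 mM lay above every sample at 16.7 mM, and the genotypes overlapped at each concentration. The ratio of the group means was 2.64 in control cells and 3.12 in knockout cells.

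Insulin transcripts moved the other way. Ins1 and Ins2 together took between 9.83% and 10.5% of the counts in control cells at 2.8 mM and between 22.3% and 33.1% at 16.7 mM, and between 5.04% and 10.5% against between 25.3% and 30.3% in knockout cells. With these 2 genes taken out of the total, the share of the ribosomal protein genes was 2.74% ± 0.536 (SD, n = 3) against 1.28% ± 0.165 (SD, n = 4) in control cells. In knockout cells it was 3.00% ± 0.232 against 1.25% ± 0.218 (SD, n = 5 each). The ratio of means was then 2.14 in control and 2.40 in knockout cells, so the fall was present without the insulin transcripts in the total. All values are relative to the other transcripts of a sample, and in such bulk samples less RNA per cell and fewer cells of a type cannot be told apart.

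**Figure D1:**
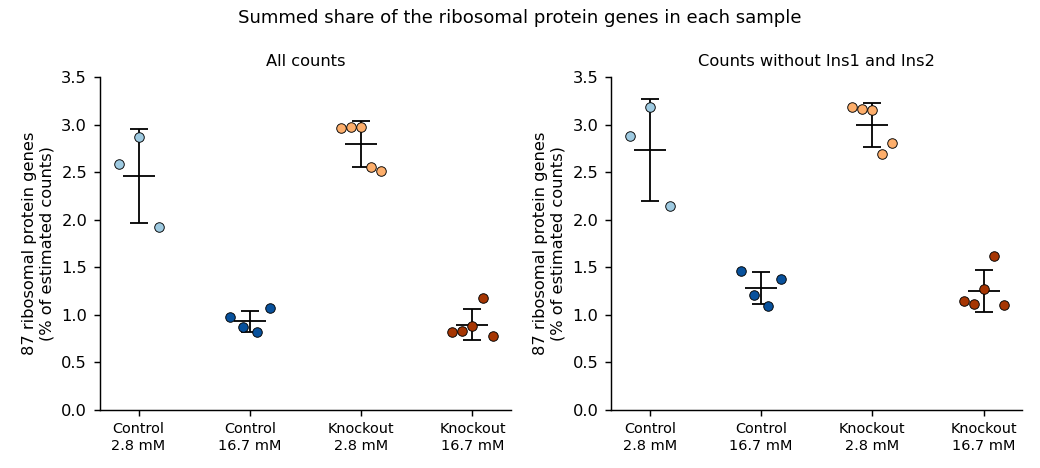
Summed share of the 87 ribosomal protein genes in each of the 17 samples, as a percentage of all estimated counts (left) and of the counts without Ins1 and Ins2 (right). Points are samples, horizontal lines the group means and bars the SD (n = 3, 4, 5 and 5); all samples at 2.8 mM lie above all samples at 16.7 mM of the same genotype in both panels.

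Gene by gene, values were scaled by TMM factors and tested with edgeR's quasi-likelihood test, and a gene was called at a Benjamini-Hochberg adjusted p below 0.05 over all genes tested and a fold change above 1.5. In control cells, 72 of the 85 genes tested fell from 2.8 to 16.7 mM and none rose. Among all 22784 genes, 6.69% were called lower and 7.15% higher in this comparison. The median log2 fold change of the 85 genes was −1.09, beside 0.04 over all genes. In 64 of the 85 genes, every sample at 16.7 mM lay below every sample at 2.8 mM, a separation seen in 12.3% of all genes. In knockout cells, 79 of the 85 genes fell and 1, Rpl36al, rose. The share of all genes called was 10.4% lower and 13.4% higher, and the median log2 fold change was −1.21 for the 85 genes beside 0.01 for all. In 77 genes the samples at 16.7 mM lay wholly below those at 2.8 mM, against 10.8% of all genes. The comparison in control and that in knockout cells share no samples but rest on a shared estimate of spread, and 72 genes were called lower in both. The share of all genes called lower in both was not computed. It cannot exceed the 6.69% called lower in control cells. The size of the fall depends on the scaling: with total counts alone the median of the 85 genes was −1.46 in control and −1.68 in knockout cells, while that of all genes moved to −0.35 and −0.47.

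**Figure D2:**
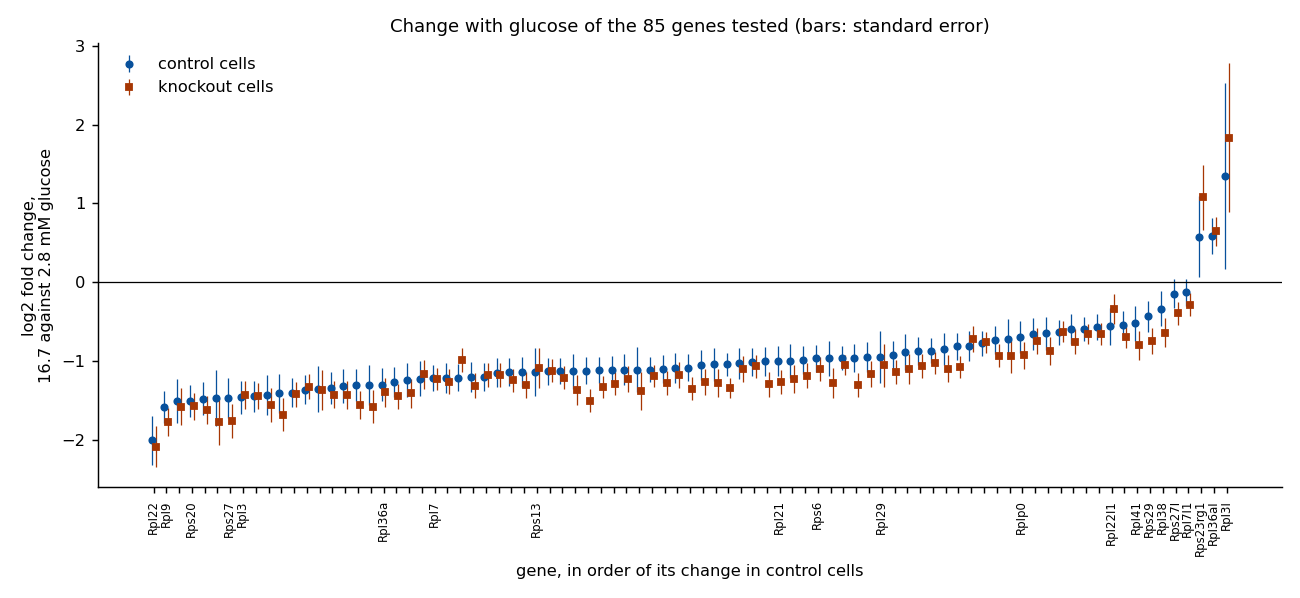
Log2 fold change from 2.8 to 16.7 mM glucose (vertical axis) for each of the 85 ribosomal protein genes tested, in order of the value in control cells (blue, with the names of some genes) with the value in knockout cells beside it (brown), both from edgeR with TMM scaling; bars are standard errors. Rpl22 falls most in both genotypes, most genes lie near −1, and of the genes above 0 Rpl36al was called in knockout cells alone, a direction that turns on the TPM scale, while Rpl3l and Rps23rg1 had very low counts.

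Calls were made in both subunits, and a difference between them was not tested. Of the genes of large-subunit proteins, 41 of 50 fell in control cells and 46 of 50 in knockout cells, with median log2 fold changes of −1.10 and −1.28. Of the genes of small-subunit proteins, 31 of 33 fell in control cells and 32 of 33 in knockout cells, with medians of −1.09 and −1.17. Rps19bp1 and Rps23rg1 were left out of these 2 counts, while the retrocopy Rps27rt and the paralogs that were tested, Rpl7l1 among them, were kept in.

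The largest fall in both genotypes was that of Rpl22, which encodes an RNA-binding protein of the large subunit. It was at 97.0, 107.1 and 76.0 CPM in control cells at 2.8 mM, and at 20.2, 18.8, 17.1 and 36.7 CPM at 16.7 mM. In knockout cells it was at 119.6, 105.0, 108.8, 94.6 and 62.9 CPM at 2.8 mM and at 17.9, 18.1, 17.9, 41.0 and 20.8 CPM at 16.7 mM. The concentrations did not overlap in either genotype, and the log2 fold change was −2.01 (SE 0.31, adjusted p = 7.1e-04, edgeR) in control and −2.09 (SE 0.26, adjusted p = 2.3e-05) in knockout cells. Replicate 4 of each genotype at 16.7 mM stood above the other samples of its group.

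After Rpl22 the largest falls in control cells were those of Rpl9, Rps15a and Rps20. Rpl9, a large-subunit gene, fell from between 309 and 512 CPM to between 120.5 and 170.2 CPM in control cells, a log2 fold change of −1.58 (SE 0.21, adjusted p = 3.4e-04, edgeR). Rps20, whose protein sits in the head of the small subunit, fell from between 119.6 and 201.9 CPM to between 47.0 and 67.6 CPM. For Rps15a the values were between 35.6 and 101.3 CPM and between 16.1 and 28.9 CPM, with a wide spread among its samples at 2.8 mM. Rpl3, whose protein lies near the peptidyl transferase centre, showed the more usual spread. It was at 895, 988 and 709 CPM in control cells at 2.8 mM and at 316, 280.1, 280.0 and 376 CPM at 16.7 mM. In knockout cells it was between 568 and 886 CPM at 2.8 mM and between 195.0 and 401 CPM at 16.7 mM. In both genotypes the ranges were apart, with log2 fold changes of −1.46 (SE 0.21) and −1.43 (SE 0.18).

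The values of 5 further genes, named for well-known roles of their proteins outside the ribosome and not as a group that was tested, were as follows. Rps6, the substrate of S6 kinase downstream of mTOR, was at 608, 678 and 439 CPM in control cells at 2.8 mM and at 293, 278, 281 and 323 CPM at 16.7 mM, with adjusted p = 0.0020 in edgeR. The ranges of Rps6 did not overlap, and the log2 fold change was −0.97 (SE 0.18). Rpl11, which with RPL5 binds 5S RNA and can inhibit MDM2, was between 142.6 and 270.3 CPM against between 70.7 and 98.0 CPM. Rps27a, made as a fusion with ubiquitin, was between 215.4 and 429 CPM against between 140.7 and 160.3 CPM. Rpsa, also known as the laminin receptor, was between 384 and 546 CPM against between 224.4 and 299 CPM. Rpl13a, which takes part in translational silencing during inflammation, was between 139.2 and 218.6 CPM against between 63.7 and 112.4 CPM. All 5 of these were called lower in both genotypes.

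The stalk of the large subunit, which recruits translation factors, is formed by the products of Rplp0, Rplp1 and Rplp2. Rplp0 was at 1064, 1015 and 699 CPM in control cells at 2.8 mM and at 776, 553, 543 and 415 CPM at 16.7 mM. These ranges overlapped, and the log2 fold change of −0.70 (SE 0.21, adjusted p = 0.029, edgeR) was smaller than the median. When same-numbered samples were paired among the 7 controls it was −0.56, under the limit on fold change. Such pairing takes replicate 4 at 16.7 mM out of the contrast, since no control sample at 2.8 mM has that number. The call in control cells was made in 15 of 22 alternatives, and was lost without control replicate 1 or 2 at 2.8 mM, without control replicate 2, 3 or 4 at 16.7 mM and when the compared groups alone were fitted. Rplp1 and Rplp2 had log2 fold changes of −0.88 and −1.04 in control cells. In knockout cells, where the samples at the 2 concentrations did not overlap for any of the 3 genes, the values were −0.93, −1.10 and −1.28.

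In control cells 13 genes were not called. Of these, 4 are paralogs described with their partners, Rpl3l, Rps23rg1 and Rps19bp1 were among the 5 genes with the lowest level, and the other 6 were Rpl41, Rpl38, Rps29, Rpl27, Rpl7a and Rpl29. Rpl41 was at 664, 809 and 453 CPM at 2.8 mM and at 665, 464, 354 and 305 CPM at 16.7 mM, which overlap, with a log2 fold change of −0.52 (SE 0.22, adjusted p = 0.11, edgeR). By the same edgeR test Rpl38 had −0.34 (adjusted p = 0.35) and Rps29 −0.43 (adjusted p = 0.15). For these 3 genes, replicate 1 at 16.7 mM was the highest of its group. Rpl27 and Rpl7a passed the adjusted p (0.026 and 0.042) but not the fold change, at 1.48-fold and 1.46-fold lower. Rpl29 was at 188.3, 195.9 and 149.4 CPM at 2.8 mM and at 116.4, 88.8, 96.6 and 66.6 CPM at 16.7 mM. These did not overlap, and adjusted p was 0.054, or 8.2e-04 with same-numbered control samples paired in a block, in which the unpaired last sample drops out of the contrast. In knockout cells all 6 of these genes were called lower, with log2 fold changes between −0.64 for Rpl38 and −1.06 for Rpl29.

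On the CPM scale, 3 paralogs were not called with glucose in either genotype where their partner genes were, and another was called higher in knockout cells. In several pairs a second gene encodes a closely related protein that can take the partner's place in the ribosome or acts in its assembly. Rpl22l1, the paralog of Rpl22, was at 55.7, 96.0 and 54.0 CPM in control cells at 2.8 mM and at 40.7, 53.8, 49.3 and 41.8 CPM at 16.7 mM. The 2 concentrations nearly touched, and the log2 fold change of −0.56 (SE 0.23) was not called (adjusted p = 0.11, edgeR). Rps27l, a paralog of Rps27 that is induced by p53, was at 180.2, 241.3 and 142.9 CPM against 161.9, 194.1, 183.8 and 139.7 CPM, which overlap. Its partner Rps27 went from 303, 388 and 222 CPM to 119.7, 106.8, 74.1 and 138.6 CPM. Rpl7l1, which is known from the assembly of the large subunit, was at 104.6, 96.4 and 88.4 CPM against 103.3, 76.3, 96.8 and 76.5 CPM. Its partner Rpl7 went from between 366 and 590 CPM to between 196.0 and 226.9 CPM. These outcomes depend on the scale: on log2(TPM + 1), where the median of all genes was −0.24 in control and −0.33 in knockout cells, all 3 paralogs were called lower by limma in both genotypes. The log2 fold changes were then −1.42 for Rpl22l1, −0.99 for Rps27l and −1.02 for Rpl7l1 in control cells, and −1.40, −1.44 and −1.45 in knockout cells. With total counts alone, Rpl22l1 was called lower in both genotypes (−0.94 and −0.82), and Rps27l and Rpl7l1 in knockout cells (−0.88 and −0.77).

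Rpl36al, the paralog of Rpl36a, was the only member with a call in the other direction. In knockout cells it was at 150.0, 155.2, 153.8, 151.1 and 156.5 CPM at 2.8 mM and at 273, 244.2, 297, 176.7 and 206.3 CPM at 16.7 mM. No sample overlapped, and the log2 fold change was 0.64 (SE 0.19, adjusted p = 0.014, edgeR). It was not called without knockout replicate 3 at 16.7 mM (0.56, adjusted p = 0.045, edgeR), and on the TPM scale, where the median of all genes was −0.33 with a pseudocount of 1, it was −0.49 (limma). In control cells Rpl36al was at 176.9, 209.6 and 143.1 CPM against 340, 274, 297 and 145.3 CPM, where replicate 4 at 16.7 mM lay within the range at 2.8 mM. The edgeR log2 fold change was 0.58 (SE 0.23, adjusted p = 0.093), or 0.80 (adjusted p = 0.0014) with same-numbered control samples paired in a block, and 0.80 (adjusted p = 0.0043) without replicate 4 at 16.7 mM. Its partner Rpl36a fell from between 39.8 and 78.0 CPM to between 17.1 and 26.8 CPM in the same samples.

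The ratio of paralog to partner within a sample does not depend on the scaling between samples. It was tested for the 4 pairs with enough counts, in each genotype, by a two-sided exact permutation test of its log2 value over samples, with adjustment over the 8 tests. This test was chosen after the values had been seen. In knockout cells the ratio was higher at 16.7 mM by 4.07-fold for Rpl36al to Rpl36a, 3.58-fold for Rpl22l1 to Rpl22 and 2.64-fold for Rps27l to Rps27. For each of these 3 pairs all 5 samples at 16.7 mM lay above all 5 at 2.8 mM, and the exact permutation p was 0.0079 (adjusted 0.021), the smallest that 5 against 5 samples allow. For Rpl7l1 to Rpl7 it was 1.94-fold higher, with exact p = 0.016 (adjusted 0.032). In control cells the ratios were higher by 3.47-fold, 2.91-fold, 2.54-fold and 2.08-fold in the same order. In each of the 4 pairs, all samples at 16.7 mM lay above all at 2.8 mM. With 3 against 4 samples the exact test gave p = 0.057 for the first 3 pairs and p = 0.029 (adjusted 0.046) for the last, where 0.029 is the smallest p the design allows. Because the groups differ in size, full separation can give either of these p-values. The lower p of the last pair is thus no sign of a larger difference, and its fold was the smallest of the 4. Across the 17 samples, Rpl36a and Rpl36al are also the pair in which the paralog is the more abundant by counts in every sample. Some reads of these genes may also match other genes, pseudogenes included. Of the 31-base words of Rpl22l1 90.7%, and of those of Rpl36a 88.4%, were also found elsewhere. The values were 9.07% for Rpl22, 20.3% for Rpl36al and 21.9% for Rps27l. Words shared between the partners of a pair were not counted apart.

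**Figure D3:**
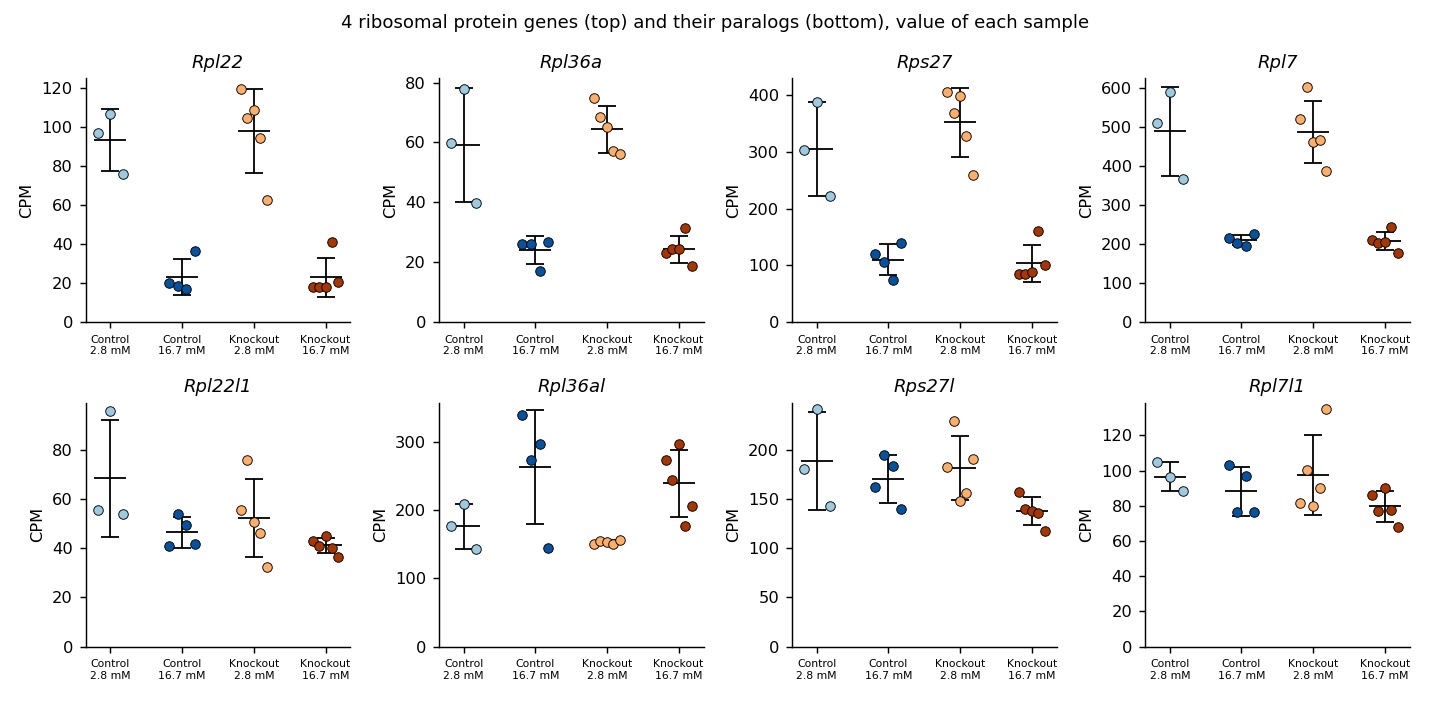
CPM (vertical axes, from 0, different between panels) of 4 ribosomal protein genes (top) and of their paralogs (bottom) in each sample of the 4 groups; points are samples, horizontal lines means and bars SD (n = 3, 4, 5 and 5). The partner genes fall at 16.7 mM in both genotypes, while Rpl22l1, Rps27l and Rpl7l1 overlap between concentrations in at least 1 genotype and Rpl36al has a higher mean at 16.7 mM on this scale, while on the TPM scale all 4 paralogs had negative estimates in both genotypes.

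The members moved together from sample to sample. The Pearson correlation of log2 CPM of a gene with the mean of the other 84, over the 17 samples, had a median of 0.974, and 72 of 85 genes were above 0.9. These points share their libraries, and the correlation holds the glucose difference itself. With the group means taken out, the median was 0.839. Among the genes most like the mean of the others were Rps14 (0.995) and Rpl32 (0.993). The least alike were Rpl36al (−0.62), Rpl3l (−0.55) and Rps23rg1 (−0.47), of which the last 2 had very few counts.

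The effect of the knockout on these genes was small at both concentrations. At 2.8 mM, 1 of 85 genes was called (2.04% of all genes were), and the median log2 fold change of knockout against control was 0.05, beside 0.03 over all genes. At 16.7 mM no member was called in edgeR (1.71% of all genes were), and the median was −0.10 beside 0.01. There, 6 members had an unadjusted p below 0.05 and the smallest adjusted p was 0.074, while DESeq2 called 1 member. For the interaction of genotype and glucose no member was called in edgeR or in DESeq2 (0.00439% of all genes in edgeR, which is 1 gene, Ins1), and 0 members had an unadjusted p below 0.05. The difference between the genotypes' responses to glucose (knockout minus control) had a median of −0.15 on the log2 scale. It ranged from −0.38 for Rpl31, −0.35 for Rpl35, −0.32 for Rpl34 and −0.31 for Rps29 to 0.22 for Rpl22l1 and for Rps12, 0.49 for Rpl3l and 0.50 for Rps23rg1.

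Of the members with the most extreme estimates, Rpl21 at 2.8 mM was the only one called. At 2.8 mM the lowest were Rpl29 (−0.52, SE 0.31), Rpl22l1 (−0.39), Rpl36al (−0.20) and Rpl34 (−0.19), and the highest were Rpl21, Rps13, Rps15a (0.63) and Rps3a1 (0.44). At 16.7 mM the lowest were Rpl29 (−0.62, SE 0.29), Rpl34 (−0.51), Rpl38 (−0.40) and Rpl11 (−0.39), and the highest were Rps23rg1 (0.92, SE 0.45), Rps13 (0.85), Rpl21 and Rpl3l (0.59).

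The gene called at 2.8 mM was Rpl21, which encodes a large-subunit protein. It was at 181.4, 142.9 and 106.1 CPM in control cells and at 269, 279, 250.1, 241.9 and 283 CPM in knockout cells, with no overlap. The log2 fold change was 0.88 (SE 0.19, adjusted p = 0.014, edgeR). At 16.7 mM it was at 91.8, 58.7, 56.7 and 79.2 CPM in control and at 102.7, 99.7, 106.3, 138.6 and 102.2 CPM in knockout cells, again apart, with a log2 fold change of 0.62 (SE 0.17, adjusted p = 0.074, edgeR). At 2.8 mM the edgeR call was lost without control replicate 2 (adjusted p = 0.061), without control replicate 3 (adjusted p = 0.12) and without knockout replicates 4 and 5 together (adjusted p = 0.050).

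A pseudogene copy of Rpl21 differed between the genotypes in the opposite direction. Gm10163, which shares 86.3% of its 31-base words with Rpl21, was between 51.4 and 81.3 CPM in control cells at 2.8 mM and between 26.5 and 38.9 CPM at 16.7 mM. In the 10 knockout samples it did not exceed 1.44 CPM. With all pseudogenes that share at least 50% of their words with Rpl21 added to it, the sums were 236.3, 235.8 and 167.0 CPM in control cells and 270.7, 280, 251.3, 242.9 and 283 CPM in knockout cells at 2.8 mM. The log2 fold change was then 0.32 (adjusted p = 0.38, edgeR), and at 16.7 mM it was 0.07 (adjusted p = 0.91). No member was called at 2.8 mM with the copies added. This summing was chosen after the values had been seen.

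Rps13, a small-subunit gene, showed the same arrangement. Rps13 itself was at 100.2, 170.6 and 46.4 CPM in control cells at 2.8 mM and at 213.8, 207.4, 185.2, 175.1 and 145.3 CPM in knockout cells, with a log2 fold change of 0.81 (SE 0.30) that was not called (adjusted p = 0.23, edgeR). It was called with the replicate block in all 17 samples, at 1.03 (adjusted p = 0.047, edgeR) at 2.8 mM and 1.01 (adjusted p = 0.029) at 16.7 mM, and at 2.8 mM also without control replicate 2 (1.34). Its pseudogene Rps13-ps1 was between 44.6 and 87.2 CPM in these control samples and at most 0.447 CPM in the knockout samples. The sums with copies were 187.8, 215.5 and 130.8 CPM in control and between 146.3 and 214.8 CPM in knockout cells, which overlap, and the log2 fold change was 0.06 (adjusted p = 0.93, edgeR). Gm12191, a copy of Rpl30, was between 17.9 and 23.1 CPM in control cells at 2.8 mM and at most 1.17 CPM in knockout cells. Rpl34-ps1, a copy of Rpl34, went the other way, with at most 0.046 CPM in the control samples at 2.8 mM and 29.2, 26.7, 0.085, 8.15 and 42.4 CPM in the knockout samples. Some other copies varied widely among the knockout samples at 2.8 mM. There Rps2-ps10, a copy of Rps2, was between 0.668 and 360 CPM, with the control samples between 134.7 and 225.1 CPM. Rps3a2, a copy of Rps3a1, was between 0.869 and 50.7 CPM, against between 61.8 and 98.4 CPM. What sets the copies apart between the genotypes, or between samples of a genotype, was not tested.

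**Figure D4:**
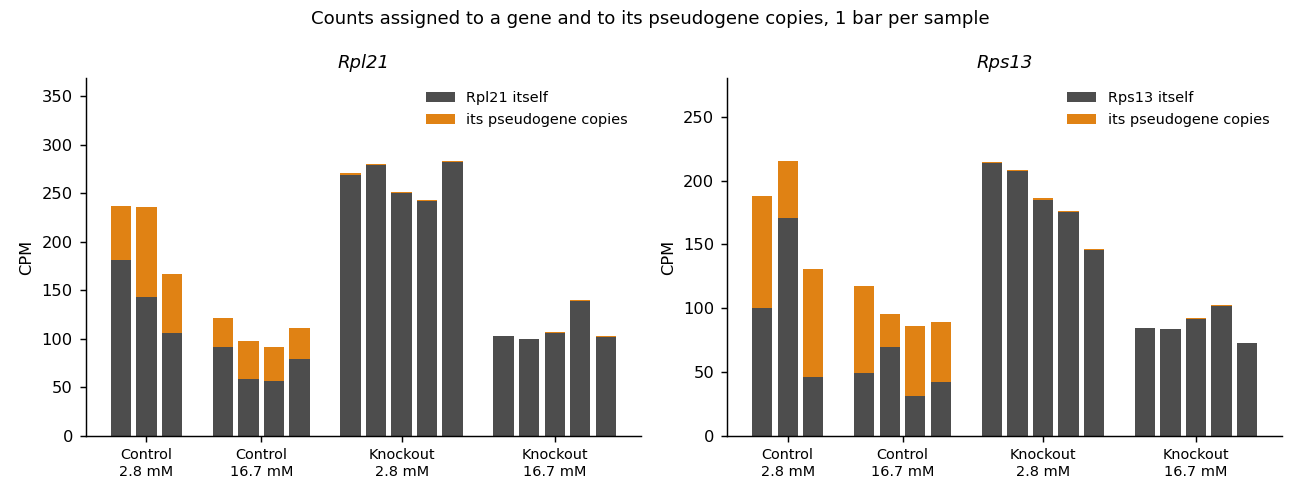
CPM assigned to Rpl21 (left) and Rps13 (right) themselves (dark grey) and to their pseudogene copies (orange) in each of the 17 samples, 1 stacked bar per sample, from 0. The copies are seen in control samples and almost not in knockout samples, and the stacked totals at the same glucose concentration overlap between genotypes for Rps13 and lie closer together for Rpl21 than its own values do.

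Copies affected the level of other members in both genotypes. Of the counts of Rpl5 and its copies, 93.1% were assigned to the copies, chiefly to Gm15500, all of whose 31-base words occur in Rpl5. Rpl5 itself was between 23.2 and 29.5 CPM in control cells at 2.8 mM, while the sum was between 322 and 463 CPM. Rpl12 had 86.2% on copies, chiefly Gm10275, Rpl27a 43.4%, Rps12 38.1%, Rps23 35% and Rpl28 33.6%. Whether these reads came from the genes or from the copies was not tested. Both Rpl5 and Rpl12 still fell with glucose when the copies were added. In control cells Rpl5 had −0.78 without and −0.88 with them, and Rpl12 −1.45 without and −1.39 with them. In knockout cells Rpl5 had −0.76 without and −0.99 with them, and Rpl12 −1.445 without and −1.32 with them. With all copies added, 72 genes were lower in control and 79 in knockout cells.

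The share of a gene's counts on its protein-coding transcripts, as opposed to retained-intron or other non-coding transcripts, was read in each sample, and the 2 members with the largest rise and fall of the mean in control cells are given. In Rpl12 it was 44.0%, 38.4% and 45.3% in control cells at 2.8 mM and 53.9%, 60.6%, 62.7% and 50.3% at 16.7 mM. In knockout cells it was between 29.6% and 40.4% at 2.8 mM and between 38.5% and 68.8% at 16.7 mM, and the ranges overlapped only through replicate 4 at 16.7 mM. Rps24, which has alternative 3′ exons, went from 73.0%, 77.2% and 61.7% to 65.5%, 66.8%, 54.5% and 58.1% in control cells, which overlap. Over the 84 members with counts in every sample, the median difference between the concentrations was −0.23 percentage points in control and −0.12 in knockout cells, and the same shares were not computed for other genes. These shares rest on how reads were divided among overlapping transcripts. For Rpl12 they also rest on the division with its pseudogene copies, to which 86.2% of the summed counts were assigned. Counts of protein-coding transcripts alone gave 72 lower genes in control and 79 in knockout cells.

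Other transcripts of the translation machinery were looked at as 4 lists. Of 22 further transcripts known to carry a TOP motif, 18 fell with glucose in control cells and none rose (6.69% of all genes were called lower), with a median log2 fold change of −0.97. In knockout cells 17 fell and 1 rose (against 10.4% and 13.4% of all genes), with a median of −1.08. Eef1a1, the elongation factor that brings aminoacyl-tRNA to the ribosome, was at 3329, 3201 and 2596 CPM in control cells at 2.8 mM and at 1386, 1298, 1208 and 1612 CPM at 16.7 mM. Eef2, the translocation factor, had a log2 fold change of −1.27 (adjusted p = 6.0e-04, edgeR) and Eif4b, an activator of the helicase eIF4A, −1.31 (adjusted p = 3.4e-04). Fau, which encodes a small-subunit protein as a fusion with a ubiquitin-like protein and is not caught by the rule on symbols, had −1.03. Gas5, a non-coding host of small nucleolar RNAs, had −1.25. Hnrnpa1, an RNA-binding protein, was the gene that rose in knockout cells, with 0.89 (adjusted p = 0.0023, edgeR).

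The medians of the other lists were nearer to 0. Of 28 genes of ribosomal RNA synthesis and ribosome assembly, 10 fell in control and 14 in knockout cells, with medians of −0.52 and −0.58 and no gene higher, where 6.69% and 10.4% of all genes were called lower. Among them were Ncl, encoding nucleolin (−0.99 in control cells, adjusted p = 0.0017), Fbl, the methyltransferase of box C/D particles (−0.65, adjusted p = 0.041), and Polr1c, a subunit shared by RNA polymerases I and III (−1.01, adjusted p = 0.0014, edgeR). Of 78 genes of the mitochondrial ribosome, 24 fell in control cells (median −0.37), and in knockout cells 21 fell and 1, Mrpl33, rose (median −0.42), beside 6.69% of all genes lower in control cells and 10.4% lower and 13.4% higher in knockout cells. Of 19 genes that control ribosomal protein synthesis, 3 fell in control cells: Myc, a transcription factor for ribosome genes (−1.72, adjusted p = 0.029), Eif4ebp1, the repressor of eIF4E (−0.92, adjusted p = 0.0052) and Rps6ka3, a kinase of the RSK family (−0.99, adjusted p = 0.044, edgeR). Myc was at 35.9, 31.8 and 26.2 CPM at 2.8 mM and at 9.63, 6.73, 5.36 and 16.3 CPM at 16.7 mM. In knockout cells Myc (−2.16) and Eif4ebp1 (adjusted p = 2.2e-04, edgeR) fell and Tsc2, an inhibitor of mTOR signalling, rose by 0.60. The 3 of 19 in control cells stand beside 6.69% of all genes, and the 2 lower and 1 higher in knockout cells beside 10.4% and 13.4%, so in knockout cells the count is near or under the background. The median of this list was 0.01 in control and −0.14 in knockout cells. In the knockout comparisons, 1 gene of the 4 lists was called, Mtor at 2.8 mM.

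**Figure D5:**
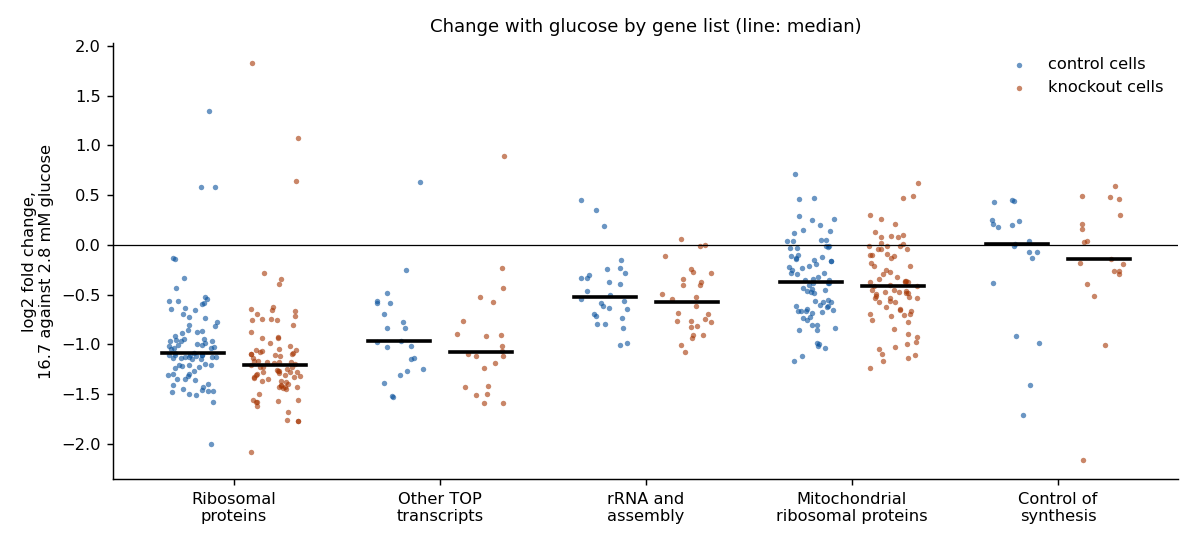
Log2 fold change from 2.8 to 16.7 mM glucose for the genes of 5 lists, in control (blue) and knockout cells (brown); each point is a gene with its edgeR estimate under TMM scaling and black lines are medians. The ribosomal proteins (85 genes) and the 22 other TOP transcripts have medians near −1, the 28 assembly genes near −0.5, the 78 mitochondrial ribosomal protein genes near −0.4, and the 19 control genes near 0.

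Markers of other cell types and of RNA quality were read beside these differences. β cell markers were high throughout, and 5 of 8 rose with glucose in control and 7 of 8 in knockout cells. Of all genes, 7.15% and 13.4% were called higher in these comparisons. The summed macrophage markers (5 of 5 detected) lay between 18.8 and 68.9 CPM in control cells at 2.8 mM and between 2.44 and 15.5 CPM at 16.7 mM, and between 27.5 and 157 CPM against between 1.71 and 13.9 CPM in knockout cells. The summed α cell markers (5 of 5 detected, with Gcg and Ttr) overlapped between concentrations in control cells, at between 691 and 2623 CPM and between 538 and 1572 CPM. In knockout cells they were between 1570 and 9438 CPM against between 953 and 1812 CPM. The 5 genes did not all go 1 way. In control cells 1 was called higher with glucose and none lower (7.15% and 6.69% of all genes were). In knockout cells 1 was called higher and 2 lower (13.4% and 10.4% of all genes). All 6 proliferation markers were called higher at 16.7 mM in knockout cells (13.4% of all genes were). Their sums there, between 4.07 and 12.8 CPM against between 2.18 and 271 CPM, overlapped. In control cells none of the 6 was called, with a median log2 fold change of 2.73. The control sums, between 4.0 and 5.9 CPM against between 8.2 and 62.2 CPM, did not overlap. Ppy, the marker of PP cells, lay between 797 and 835 CPM against between 223.8 and 631 CPM in control cells and between 992 and 5112 CPM against between 290.3 and 1142 CPM in knockout cells. The 3 δ cell markers summed to between 250.5 and 389.8 CPM against between 147.4 and 335.2 CPM in control cells, and to between 480.4 and 1316 CPM against between 198.4 and 565.5 CPM in knockout cells. Acinar markers summed to at most 23.6 CPM, and ductal markers to at most 800.4 CPM, the latter in a control sample at 16.7 mM. Endothelial and stellate markers summed to at most 1.45 CPM in any sample. Mitochondrially encoded transcripts took between 1.96% and 2.96% of counts at 2.8 mM and between 1.05% and 2.06% at 16.7 mM in control cells, and between 1.29% and 2.80% against between 1.58% and 1.94% in knockout cells. The part of these other cells in the results was not tested. Gcg, which encodes glucagon, was at 1452, 6473, 1951, 9159 and 5307 CPM in the knockout samples at 2.8 mM. Without replicates 4 and 5 of that group, 79 members fell with glucose in knockout cells and none rose. Replicate 2, at 6473 CPM, was kept, so this leave-out does not divide the samples by their Gcg.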

How the data were processed

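Poly(A) RNA of 17 samples of sorted β cells was sequenced after preparation with an ultra-low-input kit. Per the labels and the study's methods, the authors quantified reads with Kallisto (version not given in the sources used here; build mm39), and the deposited estimated counts per transcript are neither rounded nor normalized between samples. The deposited TPM values are the authors' Kallisto abundances per effective transcript length, scaled within each sample. Estimated counts were summed per gene here, rounded, filtered with filterByExpr and scaled by TMM.

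The main test was edgeR 4.0.16's quasi-likelihood test (R 4.3.3) with 1 mean for each of the 4 groups, 5 contrasts and Benjamini-Hochberg adjustment over 22784 genes. Genes were called where the fold change passed 1.5 and the adjusted p was under 0.05. SE is the log2 fold change divided by the square root of F. The study's model had a batch factor whose levels are not given in the sources used here, so it was not fitted. DESeq2 1.42.0 and limma 3.58.1 (log2 TPM with pseudocounts of 1 and 0.1) were alternatives, as were other scalings, filters and samples left out. The fit was also run on simulated counts in which genes varied independently, unlike the genes described here, and the outcome is not reported here. Shared 31-base words and starts were read from GRCm39 with GENCODE vM39.

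The members and gene lists were chosen with earlier results of these data known. Genes named were, for each comparison, the 4 with the largest and the 4 with the smallest log2 fold change, those called in a knockout comparison, the 5 with the highest and the 5 with the lowest level, the paralogs with their partners, the stalk genes, genes with roles beyond the ribosome, and the 3 most and least like the others. Other genes named were chosen after their values had been seen. Deviations from group means of same-numbered control samples at the 2 glucose concentrations correlated at 0.20, 0.12 and 0.26, so numbers were taken to pair the control samples, a pairing that comes from the data and not from the labels. Some genes that these rules select are not reported here.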

Additional observations from a re-analysis of the deposited data

Results flagged for a closer look

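Samples that stood apart from the rest of their group were looked for in 93 groups of 4 or 5 samples by Dixon's test, and 10 were found. Chance marks about 1 group in 20 where groups are independent. That rate is no guide here, since the genes were read in the same samples and moved together. Of the 10 found, 7 were knockout replicate 4 at 16.7 mM. It had the highest summed share of the ribosomal protein genes, 1.18% of counts against between 0.774% and 0.883% in the other 4 samples. It was also highest for Rpl22 (41.0 CPM against at most 20.8 CPM), Rps27 (161.2 against at most 100.5 CPM), Rpl9 (200.7 against at most 121.7 CPM), Rps15a (49.96 against at most 34.4 CPM), Rps27a (172.8 against at most 135.6 CPM) and Rpl21 (138.6 against at most 106.3 CPM). Without it, 80 members were called between the glucose concentrations in knockout cells.

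In control cells at 16.7 mM, replicate 4 was apart for Rpl22 (36.7 CPM, with the others between 17.1 and 20.2 CPM) and replicate 3 for Rpl36a (17.1 CPM, with the others between 26.0 and 26.8 CPM). In knockout cells at 2.8 mM, replicate 2 was apart for Rpl11 (243.1 CPM, with the others between 156.6 and 180.3 CPM).

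Outside the ribosomal protein genes themselves, the pseudogene Rpl34-ps1 reached 42.4 CPM in a knockout sample at 2.8 mM, where the control samples held at most 0.046 CPM.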

How the results depend on the processing

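The fall with glucose kept its direction in both genotypes under every alternative run. Over samples left out singly, the members called ranged from 58 (without control replicate 2 at 2.8 mM) to 77 (without control replicate 3 at 2.8 mM) in control cells and from 78 to 80 in knockout cells. In control cells 58 members, and in knockout cells 76, were lower under every setting. The calls between genotypes rest on 1 or 2 genes. At 2.8 mM they ranged from 0 (without control replicate 3) to 1 over samples left out singly, and were 2 with the replicate block in all 17 samples, 0 with pseudogene copies added and 0 without knockout replicates 4 and 5. The last 2 alternatives were chosen after seeing the data. At 16.7 mM they ranged from 0 to 1 (without control replicate 1), and were 1 with DESeq2, 2 with the replicate block and 1 with protein-coding transcripts alone. The interaction stayed at 0 over samples left out singly and with the block. The ratio of summed shares was 3.51 in control and 4.65 in knockout cells as a percentage of TPM, and 2.40 in knockout cells without insulin. A pyrimidine run lay within 30 bases of the start in 37.9% of the genes and in 23.1% of other genes. The log2 fold change of Rpl36al in knockout cells turned to −0.49 on log2(TPM + 1) and to −0.49 on log2(TPM + 0.1). The causes of these differences were not tested.

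With the replicate block in all 17 samples, 73 members were called in control cells and 80 in knockout cells, and in the 7 controls alone 69 of 84 tested. In control cells the block in the 7 controls lost Rps21, Rplp0, Rpl18, Rpl10a and Rpl39 to the limit on fold change and gained Rpl29 and Rpl36al. In the other comparisons at least 1 pair of same-numbered samples correlated at 0.1 or less, so their numbers were not taken to pair them. Other pairs there correlated more, up to 0.35 for replicate 4 of the genotypes at 16.7 mM. Samples of unlike number were not correlated, and whether same-numbered samples share a batch was not tested. Depth was not below 47385513 estimated counts in any sample, and the intervals given cover the spread between samples alone.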
